A study of Mus musculus with 12 samples.

Results

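Mammary tumours of YC mice were compared with those of YE mice, 2 strains out of 6 in a series on tumours driven by an activated neu (ErbB2) transgene. The 2 pools titled YC and the 2 pools titled YE were set against each other, 4 of the 12 pools in all, with the spread estimated from all 12. YC and YE tumours express altered forms of the activated receptor under the MMTV promoter, which is active mainly in mammary epithelium. The other strains are YD, YB, NYPD and the parental NDL2-5 strain, written NDL25 in the sample names. As background, the tail tyrosines that the receptor phosphorylates on itself were removed in NYPD. The YC and YE receptors are each NYPD with 1 such site put back, as are those of YB and YD, so that both strains compared here lack all sites but 1. The labels do not name the sites. All mice were female and had borne tumours for 6 weeks when the tissue was flash frozen. Each pool held RNA of 5 whole tumours, 10 tumours per strain, so that the tumours of single animals cannot be seen. From each pool 500 ng of RNA were amplified in 1 round and set on 2 arrays against a purchased mixture of mouse cell RNA, Universal Mouse Reference RNA, with the dyes exchanged. Each value below is a log2 ratio of tumour over reference averaged over such a pair, and a difference is the YC mean minus the YE mean of these ratios. The labels do not say that the pools came from separate cohorts, so p-values measure the spread between pools only.

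ErbB2 is a receptor tyrosine kinase that has no known ligand of its own and signals in pairs with the other ErbB receptors. Phosphorylated tyrosines in its tail recruit adaptor proteins, and each site prefers its own partners, with Grb2 known for the YB site and Shc for the YD site. The adaptors feed the Ras, ERK and phosphatidylinositol 3-kinase pathways. Strains with 1 site each therefore allow receptors with different sites to be compared in tumours of one tissue. With 1 strain per site, other traits of a strain cannot be told apart from its site.

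Over the 24 arrays the median tumour signal ran between 364.8 and 763.5 intensity units, with the local background at 39 to 64, and 97.28% to 98.86% of spots were well above background. After filters 28343 genes were tested. Luminal genes cannot serve here as a test of the labelled tissue. The dye of each tumour sample was itself read from luminal and milk genes, with the tumour taken as the higher side. A luminal median above the reference therefore follows from that choice. Over 20 genes of luminal mammary epithelium the median log2 ratio was 1.70 and 1.72 in the YC pools, against 1.48 and 1.53 in the YE pools. The arrays had been read into numbers in 3 feature-extraction sessions. Both arrays of YC pool 1 and 1 array of YC pool 2 were read in session 2, and the other array of YC pool 2 in session 1. All 4 YE arrays were read in session 1, as were the 4 YD arrays. Strain and session can therefore be told apart only through that 1 YC array, which has the tumour in Cy5 and can be set against the Cy5 arrays of both YE pools. Such a difference is called within session 1 below, and it leaves out YC pool 1. A session term in the fit takes its step from session 1 to session 2 from the 2 YC pools alone. Neither can tell session apart from a difference between those 2 pools. Values of both kinds are therefore not checks separate from each other or from leaving out YC pool 1.

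The Erbb2 message did not differ beyond its error. The probes were designed to the mouse gene, and how far they also read the transgene was not tested. The brightest Erbb2 probe had log2 ratios of 3.72 and 3.91 in the YC pools, against 3.42 and 3.92 in the YE pools. These values overlap, and the difference was 0.14 ± 0.85 (SE, n = 2 pools each, limma adjusted p = 1.0). The wide error comes with 2 pools of other strains, NDL25 pool 1 at 1.65 and YB pool 1 at 1.85. The other 2 Erbb2 probes differed by 0.01 and 0.06. Among the receptor's partners, Erbb3 was at 2.99 and 3.29 in the YC pools, against 3.19 and 3.65 in the YE pools, with a difference of -0.28 ± 0.19. Egfr differed by 0.32 ± 0.28 and Erbb4 by 0.10 ± 0.06. Other probes of these receptors ran from -0.05 to 0.11 for Erbb3, from -0.0078 to 0.76 for Egfr and from -0.05 to 0.08 for Erbb4. Leaving out YC or YE pools one at a time took the Erbb2 difference to between -0.11 and 0.40, that of Erbb3 to between -0.51 and -0.05 and that of Egfr to between 0.04 and 0.60.

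Of 25 receptor adaptors and docking proteins tested, 0 passed the test at an adjusted p of 0.05, where 0.00353% of all genes did. The median difference over the adaptors was 0.02, and it ran from -0.037 to 0.051 with a YC or YE pool left out. Over all genes it was -0.00899. The YC pools lay above both YE pools for 8 of them and below for 7, where 18.1% of all genes lay above and 21.7% below, 39.7% together. Sos2, an exchange factor that activates Ras, had log2 ratios of 0.11 and 0.20 in the YC pools, against 0.49 and 0.43 in the YE pools. That difference of -0.31 ± 0.06 had the smallest p among the adaptors (unadjusted p = 0.0015, limma adjusted p = 0.202). Pik3r1, the main regulatory subunit of phosphatidylinositol 3-kinase, was at -1.22 and -0.42 in the YC pools, against -1.51 and -1.58 in the YE pools. On this brightest probe the difference of 0.72 ± 0.31 became 1.13 without YC pool 1 and 0.32 without YC pool 2. The other 3 Pik3r1 probes differed in the same direction, by 0.68 ± 0.13, 0.91 ± 0.29 and 0.64 ± 0.16. Pik3r3, another regulatory subunit of the kinase, was at 0.21 and 0.18 in the YC pools, against 0.59 and 0.96 in the YE pools, while its other 2 probes differed by -0.06 and -0.10. Grb2 differed by 0.02 ± 0.23, and Shc1 by 0.32 ± 0.18, which became 0.19 without YC pool 2.

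A single gene out of 28343 passed the test between the strains, BC006965, which rose in YC tumours. RefSeq lists BC006965 as a long non-coding RNA, and no role is given for it in the sources used here. Its log2 ratio was 1.05 and 0.999 in the YC pools, against 0.28 and 0.25 in the YE pools. The YC pools were the highest 2 of the 12, and the 8 pools of the other 4 strains lay between 0.11 and 0.28. The difference of 0.76 ± 0.06 (SE, n = 2 pools each) is a 1.70-fold level, with a limma adjusted p of 0.0335. This call held under 10 of 31 alternative settings, where the difference ran from 0.69 to 0.94. It was lost with any pool left out except either NYPD pool, with an adjusted p of 0.0516 to 0.301, and within session 1 the difference was 0.75. Against the mean of the 4 other strains BC006965 was 0.82 ± 0.04 higher in YC (limma adjusted p = 0.000623), and that call held under 28 of 28 settings.

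Beyond BC006965 no gene passed the test, so the differences below are uncertain one by one. An unadjusted p under 0.05 was reached by 2293 genes, 8.09% of those tested, where 1417 would be 5%. Of these, 1112 were higher in YC, or 3.92% of the genes, and 1181 lower. With the session as a term 1406 genes reached an unadjusted p under 0.05. Leaving out single pools moved the count to either side of 1417. A difference of at least 1 on the log2 scale was seen upward for 138 genes and downward for 113. The smallest adjusted p of a gene with an ordinary symbol was 0.0651, for Lrrc42, which encodes a leucine-rich repeat protein. Lrrc42 had log2 ratios of -1.49 and -1.40 in the YC pools, against -2.10 and -2.16 in the YE pools, and its second probe differed by 0.52 in the same direction. With 2 pools a strain the number of pools limits the precision. Only 2 genes were well above background on all arrays of one strain and on none of the other. AK033111 was above background in YE alone, at least 1.46-fold higher there, and AK037859 in YC alone, at least 1.10-fold higher there, with limma adjusted p of 0.164 and 0.876.

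**Figure D1:**
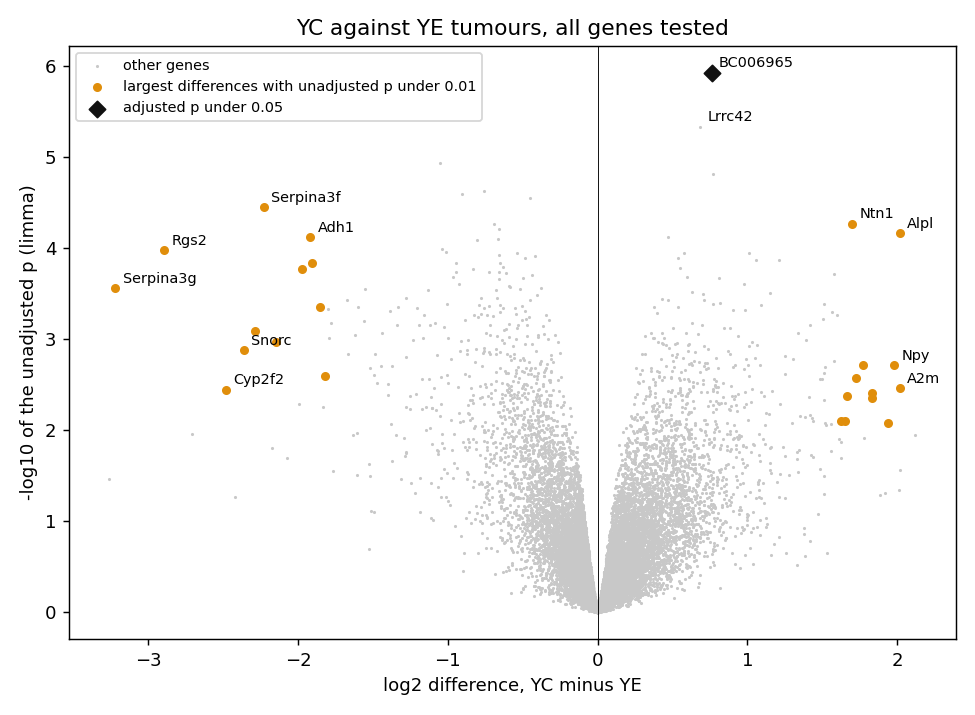
Each point is 1 of the 28343 genes tested, with the log2 difference of YC minus YE on the x axis and -log10 of the unadjusted limma p on the y axis. The diamond is BC006965, the only gene with an adjusted p under 0.05, and orange points are the 24 genes with the largest differences at an unadjusted p under 0.01 and pools that do not overlap.

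The widest differences are given as values, since none of these genes passed the test after adjustment. They are the 12 largest in each direction among genes with an ordinary symbol, an unadjusted p under 0.01 and YC and YE pools that do not overlap. Among the 12 lower in YC, the largest difference belonged to Serpina3g, which encodes the intracellular protease inhibitor Spi2A. Serpina3g had log2 ratios of 0.16 and -0.43 in the YC pools, against 2.67 and 3.49 in the YE pools. The difference of -3.22 ± 0.51 puts the YC level at 0.107 of the YE level (unadjusted p = 0.000274, limma adjusted p = 0.147). Its neighbour on chromosome 12, Serpina3f, a related protease inhibitor, was at 0.44 and 0.16 in the YC pools, against 2.22 and 2.83 in the YE pools, a difference of -2.23 ± 0.26 (limma adjusted p = 0.125). A second Serpina3f probe differed by -2.57. For both genes the YE pools were the high ones, above all 8 pools of the other 4 strains, which reached 1.01 for Serpina3g and 1.20 for Serpina3f. The YD pools, read in the same session as the YE pools, had -0.50 and -0.67 for Serpina3g and 0.19 and 0.07 for Serpina3f. Other members of the cluster, looked up after these values were seen, did not stand out: Serpina3n differed by 0.13 ± 0.14 and Serpina3k by -0.19 ± 0.05, while Serpina3a, Serpina3b, Serpina3c and Serpina3m differed by -0.10 to 0.06. The mouse Serpina3 genes are close copies of each other, so a probe may also catch a relative, and whether both report 1 signal was not tested. Only 1 probe measured Serpina3g.

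Since Serpina3g and Serpina3f differed in the same direction and are neighbours, the 250 bases before their start sites are shown, from RefSeq on GRCm38.p6. They lie on the plus strand at chr12:104235897-104236146 for Serpina3g and at chr12:104214294-104214543 for the outer start site of Serpina3f. Capitals mark matches to a STAT motif with the letters TTCNNNGAA.
Serpina3g: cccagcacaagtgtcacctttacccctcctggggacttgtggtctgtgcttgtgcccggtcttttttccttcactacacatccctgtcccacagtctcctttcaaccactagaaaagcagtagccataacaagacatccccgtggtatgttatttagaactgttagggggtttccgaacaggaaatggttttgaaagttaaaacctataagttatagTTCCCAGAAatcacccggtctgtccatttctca
Serpina3f: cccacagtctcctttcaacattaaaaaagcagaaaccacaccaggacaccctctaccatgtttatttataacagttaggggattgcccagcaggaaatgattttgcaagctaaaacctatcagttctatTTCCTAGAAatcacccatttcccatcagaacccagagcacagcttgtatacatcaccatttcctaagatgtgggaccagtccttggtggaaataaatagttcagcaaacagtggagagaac
Each stretch holds 1 match, which begins 33 bases before the start site in Serpina3g and 121 bases before it in Serpina3f. The motif reads the same on both strands and occurs in 7.02% of the 32851 stretches of this length in the table. The letters around the match are alike in both stretches, so the 2 matches do not count as separate finds. Neither stretch holds TGANTCA, the AP-1 motif, or TGACGTCA, the CRE motif, on either strand, which 6.75% and 1.55% of the stretches hold. A match describes the letters only.

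Signalling and surface genes made up other members of the lower group. Rgs2, which switches off G protein signalling, was at -0.10 and 0.61 in the YC pools, against 2.91 and 3.39 in the YE pools, a difference of -2.90 ± 0.40 (limma adjusted p = 0.134), and its second probe differed by -1.17. Celsr1, a cadherin of planar cell polarity, was at -1.70 and -0.91 in the YC pools, against 0.20 and 0.83 in the YE pools. Both glycosyltransferases in the group had their lowest values of the series in YC tumours. Gcnt1, which branches O-linked sugar chains, had log2 ratios of 0.73 and 0.48 in the YC pools, against 2.54 and 3.23 in the YE pools, a difference of -2.29 ± 0.43, with its other 2 probes at -1.53 and -1.39. B3galt5, which adds galactose to such chains, differed by -1.91 ± 0.28, and the YB pools at 3.01 and 3.96 stood above the YE pools at 2.40 and 2.75. Snorc, a transmembrane proteoglycan known from cartilage, differed by -2.36 ± 0.48, and Slc12a8, of the cation-chloride cotransporter family, by -2.15 ± 0.43. Eva1a, a membrane protein linked to autophagy, was at 0.12 in both YC pools, against 1.84 and 2.09 in the YE pools.

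Metabolic enzymes completed the lower group. Adh1, an alcohol dehydrogenase that also oxidises retinol, was at 0.30 and 0.69 in the YC pools, against 2.20 and 2.63 in the YE pools. Its difference was -1.92 ± 0.25 (limma adjusted p = 0.134), and its second probe differed by -2.17. Cyp2f2, a cytochrome P450 best known from mouse airway, differed by -2.48 ± 0.60. Ak1, the cytosolic adenylate kinase, was at -0.54 and -0.75 in the YC pools, against 1.34 and 1.33 in the YE pools. It was 1 of 3 genes of the group, with Eva1a and Gcnt1, whose YC pools lay below and whose YE pools lay above all 8 other pools. In 10 of the 12 genes both YE pools exceeded all 8 pools of the other strains, as in 3.7% of all genes, and in 5 of the 12 both YC pools were under all 8, as in 2.15%. These 12 were picked by the same contrast, so their counts describe them and support nothing.

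Among the 12 genes higher in YC, Alpl, the tissue-nonspecific alkaline phosphatase, had log2 ratios of 2.38 and 2.60 in the YC pools, against 0.55 and 0.39 in the YE pools. The difference was 2.02 ± 0.26 (limma adjusted p = 0.134). Alpl was the only one of the 12 with both YC pools above and both YE pools below all 8 other pools, which lay between 1.17 and 1.99. Npy, the precursor of neuropeptide Y, was at 2.99 and 3.46 in the YC pools, against 1.54 and 0.95 in the YE pools. Sftpd, the lung collectin surfactant protein D, was at 3.17 and 4.001 in the YC pools, against 2.35 and 0.95 in the YE pools. For Alpl, Npy and Sftpd the YC pools were the highest of the series, as for 1.62% of all genes. The Sftpd difference of 1.94 ± 0.55 became 1.23 without YE pool 2.

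Ndrg1, Emp2, Ntn1 and Rflnb of the higher group stood apart through low YE values. Ndrg1, a gene induced by hypoxia and stress, was at -1.92 and -1.01 in the YC pools, against -3.15 and -3.33 in the YE pools, a difference of 1.77 ± 0.39. Emp2, a tetraspan membrane protein of epithelia, was at -0.47 and -0.02 in the YC pools, against -1.58 and -2.57 in the YE pools. Both genes lay below all 8 other pools in YE tumours, as did Alpl, Ntn1 and Rflnb, 5 of the 12 where 3.96% of all genes do so. Ntn1, the secreted guidance protein netrin 1, had log2 ratios of 1.68 and 1.93 in the YC pools, against 0.33 and -0.11 in the YE pools, but its second probe differed by only 0.12. Rflnb, which binds filamin, differed by 1.62 ± 0.46, with 0.29 on its second probe. A2m, the broad protease inhibitor alpha-2-macroglobulin, differed by 2.02 ± 0.49, and its other probe by -0.01. On the brighter A2m probe the YE pools, at 1.37 and 1.53, lay within the range of the 8 other pools. For these 3 genes the probes disagree, and the values rest on the brighter probe.

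The remaining members of the higher group code for secreted, stress and methyl-transfer proteins. Cp, the copper-carrying ferroxidase ceruloplasmin, differed by 1.83 ± 0.46. Clu, the extracellular chaperone clusterin, was at 2.19 and 2.67 in the YC pools, against 1.54 and 0.01 in the YE pools, and its difference of 1.65 ± 0.47 became 0.89 without YE pool 2. Casp12, a caspase of the endoplasmic reticulum, differed by 1.67 ± 0.42. Inmt, an N-methyltransferase of indole amines, was at -0.47 and 0.31 in the YC pools, against -1.65 and -1.97 in the YE pools. Within session 1 the differences of the 24 genes were 76.9% to 135% of those over all arrays, and with the session as a term in the fit they were 34.75% to 181%. The 24 were picked from the same arrays, so their keeping of direction in both is a description and supports nothing.

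**Figure D2:**
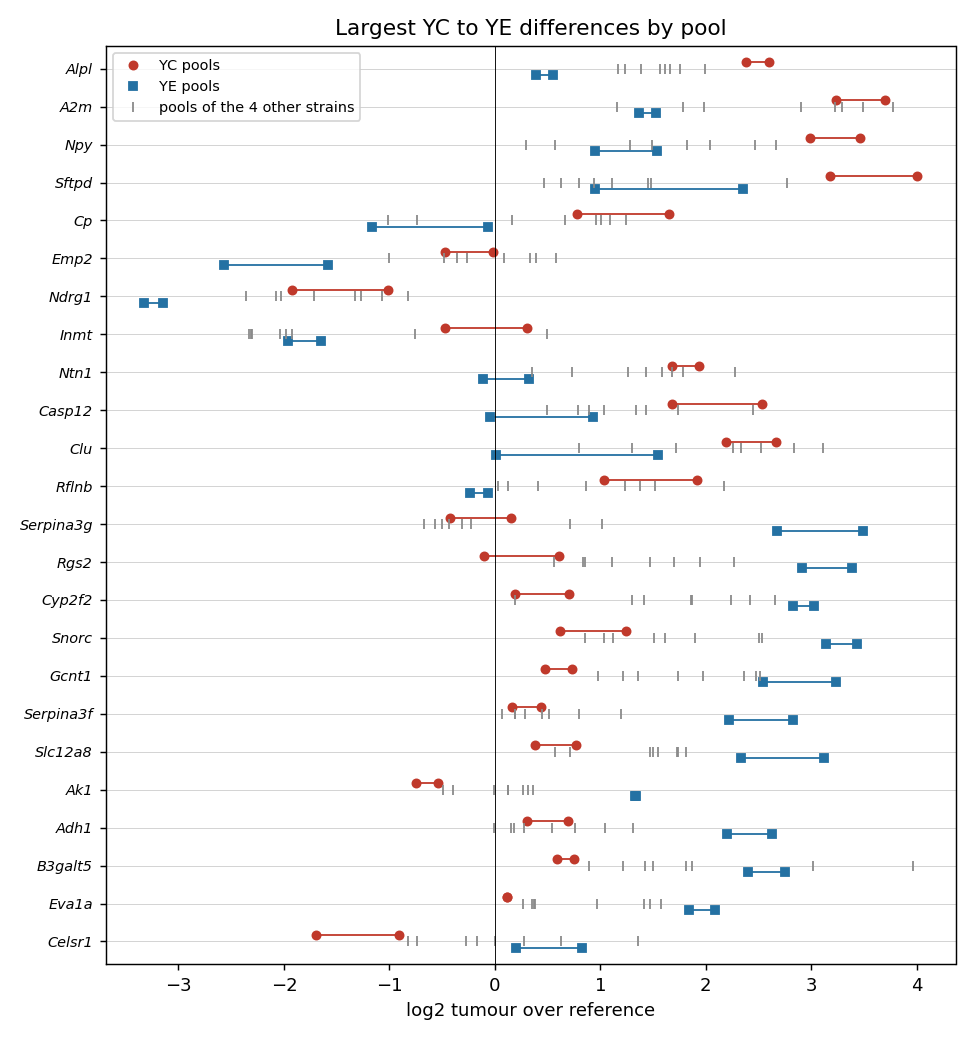
Log2 tumour over reference is on the x axis for the 24 genes with the largest differences, with red circles for the 2 YC pools, blue squares for the 2 YE pools and grey ticks for the 8 pools of the other strains. In 10 of the 12 lower genes the YE pools lie right of every grey tick.

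To see on which side a difference lay, YC and YE were each set against the mean of YD, YB, NYPD and NDL25. These comparisons share their reference strains with each other and their pools with the one above, so their values stand side by side only. Against the 4 strains 11 genes passed the test in YC tumours, 4 higher and 7 lower, 0.0388% of those tested. In YE tumours 23 passed, 8 higher and 15 lower, 0.0811%. Several of the lower ones are genes of salivary secretion that stood high in YB alone, such as Prpmp5 at 5.98 and 6.10 and Crisp1 at 5.20 and 5.37 in the YB pools, and say little about YC or YE. The genes below were named after their values were seen.

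On the YC side Birc6, a very large ubiquitin ligase of the inhibitor-of-apoptosis family, fell by 1.17 ± 0.11 below the 4 strains (limma adjusted p = 0.0227). It had log2 ratios of -1.57 and -1.20 in the YC pools, against -0.27 and -0.47 in the YE pools, and YE differed from the 4 strains by -0.16 ± 0.11. The YC call was lost with YC pool 1, YD, NDL25 or YE pools or NYPD pool 2 left out one at a time, with an adjusted p of 0.0538 to 0.213, and with the session as a term (adjusted p = 0.213). Slc25a17, a carrier of cofactors into the peroxisome, rose above the 4 strains in both, by 1.14 ± 0.06 in YC (limma adjusted p = 0.000597) and by 0.97 ± 0.06 in YE (limma adjusted p = 0.00207). Its log2 ratios were -1.65 and -1.56 in the YC pools and -1.80 and -1.76 in the YE pools, against -2.98 to -2.57 in the other 8 pools, and YC and YE did not pass the test against each other (0.17 ± 0.08). A second probe showed the same order, at -1.51 and -1.46 in the YC pools and -1.66 and -1.63 in the YE pools, and the other probe did not, at 0.47 and 0.43 in the YC pools and 0.34 and 0.35 in the YE pools. Without YE pool 2 the adjusted p of Slc25a17 in YE was 0.0655.

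On the YE side the calls cannot be told apart from session. All YE arrays were read in session 1, with YD alone among the 4 other strains. With the session as a term every YE call named here and that of Slc25a17 was lost, with limma adjusted p of 0.249 to 0.492. That term takes its step from session 1 to session 2 from the 2 YC pools alone, so the part of session in these calls was not tested. Serpina3f rose by 2.07 ± 0.21 above the 4 strains (limma adjusted p = 0.0247), while YC differed from them by -0.16 ± 0.21. Adh1 rose by 1.89 ± 0.20 in YE (limma adjusted p = 0.0272), with YC at -0.03 ± 0.20. The YD pools of Adh1, read in the same session as YE, were at 1.04 and 0.54. Apof, an apolipoprotein of plasma lipoproteins, rose by 2.001 ± 0.20 in YE, where its log2 ratios were 2.60 and 3.30, against 0.27 to 1.72 in the 8 other pools. Its ratios in the YC pools were 1.502 and 1.30. Iftap, a protein of the transport system of cilia, rose by 0.79 ± 0.07 in YE. Among genes that fell in YE were Anxa3, a calcium-dependent membrane-binding annexin, by 1.32 ± 0.13, and Lhfpl2, a tetraspan membrane protein, by 1.20 ± 0.12. Lrrc42 fell by 0.51 ± 0.05, Slc16a1, the lactate carrier MCT1, by 0.61 ± 0.06, Ywhah, a 14-3-3 adaptor protein, by 0.87 ± 0.10 and C3ar1, the receptor of complement fragment C3a, by 0.57 ± 0.06. With outlier spots kept C3ar1 fell short of the test at -0.18 (adjusted p = 0.272), as did Slc16a1 with its 3 probes averaged at -0.30 (adjusted p = 0.0696). Anxa3 was at -1.45 and -1.82 in the YC pools, against -2.08 and -2.43 in the YE pools, and its second probe showed no such pattern, at -0.06 and 0.05 in the YC pools and -0.02 and -0.07 in the YE pools. Each of these YE calls was lost in some fits with 1 pool left out, all of them without YE pool 2, where the adjusted p ran from 0.225 to 0.441 for the genes named here other than Slc25a17.

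**Figure D3:**
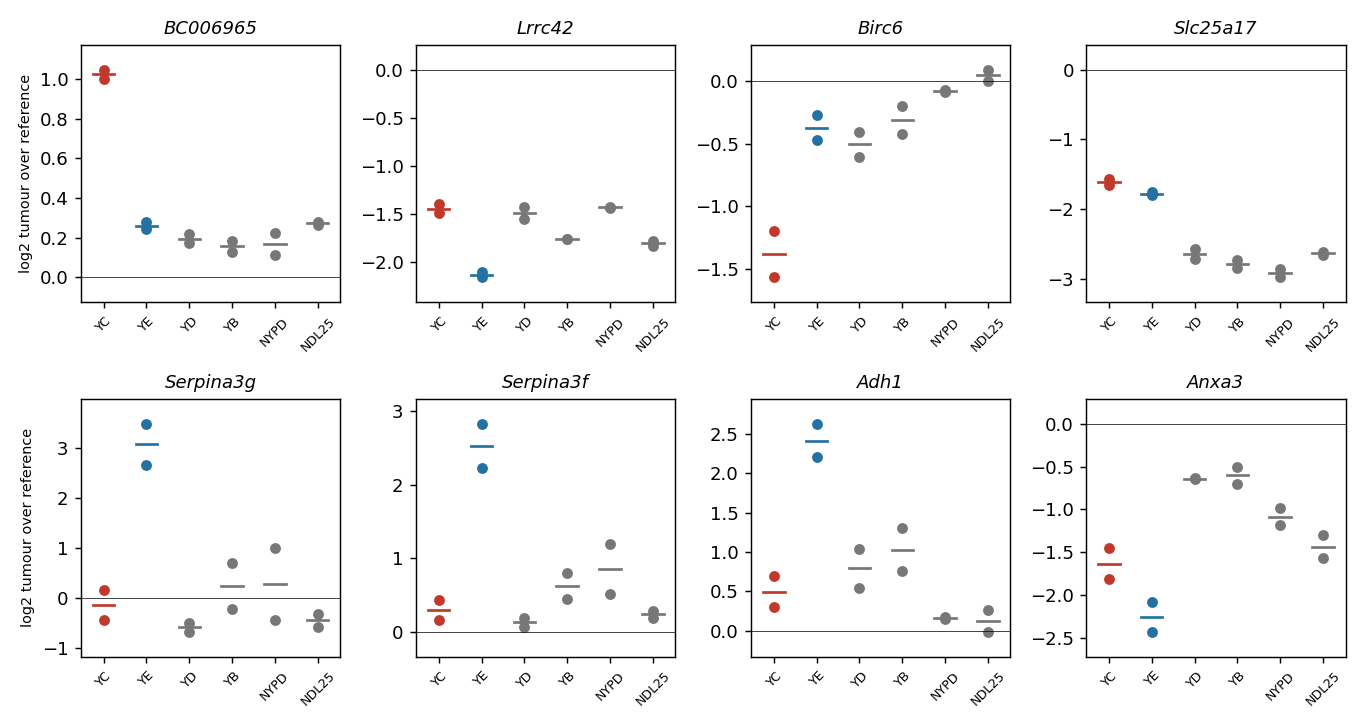
Log2 tumour over reference on the y axis for 8 genes, with 1 dot per pool and a bar at the mean of the 2 pools of each strain, YC in red, YE in blue and the other strains in grey. BC006965 and Birc6 stand apart in YC, Serpina3g, Serpina3f and Adh1 in YE, and Slc25a17 in both.

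Genes of pathways and cell types were then read as lists. In none of the 47 lists did a member pass the test, so each list is described by its counts and its median, beside the 18.1% of all genes that were higher and the 21.7% that were lower in YC without overlap of pools. The members named are those with the smallest p in each list, and so its extremes. The tumours were whole tissue, so fewer cells of a type and less RNA per cell cannot be told apart.

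Oxidative phosphorylation, the respiratory chain and ATP synthase of mitochondria, leaned lower in YC. Of 30 genes tested, 17 were lower in both YC pools than in both YE pools and 0 were higher, and 10 had an unadjusted p under 0.05, all lower, as did 4.17% of all genes in that direction. The median difference was -0.22, and it was -0.32 within session 1, -0.38 with the session term and -0.30 to -0.22 with 1 pool left out. Ndufb3, a subunit of complex I, had log2 ratios of 0.32 and 0.30 in the YC pools, against 0.96 in both YE pools, a difference of -0.65 ± 0.09 (limma adjusted p = 0.134). Ndufb5, of the same complex, was at 0.21 and 0.20 in the YC pools, against 0.76 and 0.91 in the YE pools. Ndufs3, also of complex I, differed by -0.56 ± 0.14, and Atp5o, of the ATP synthase stalk, by -0.38 ± 0.08. By pool the median of the list was 0.20 and 0.04 in the YC pools, against 0.27 and 0.29 in the YE pools.

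**Figure D4:**
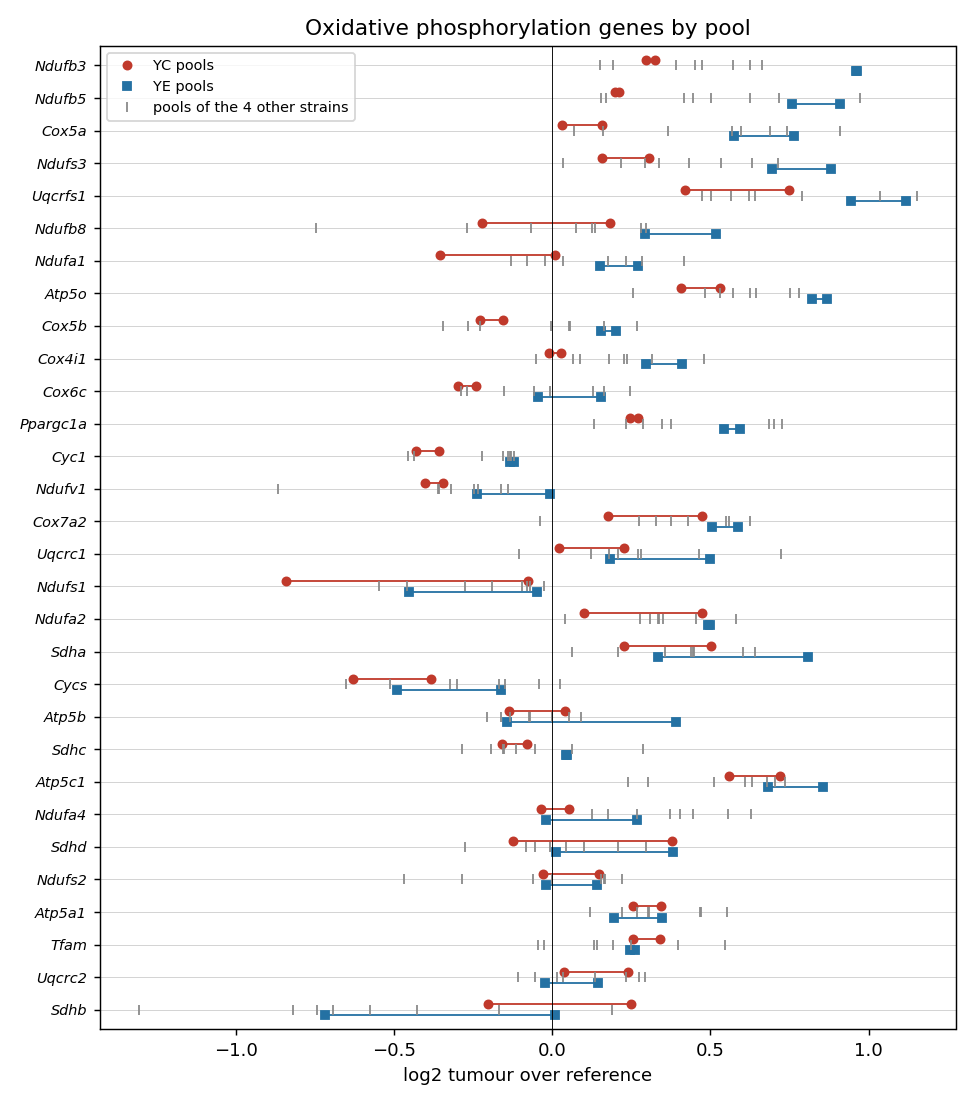
Log2 tumour over reference on the x axis for the 30 oxidative phosphorylation genes tested, in order of their difference, with red circles for the YC pools, blue squares for the YE pools and grey ticks for the 8 pools of the other strains. For 17 genes both YC pools lie left of both YE pools.

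Lipid genes were mixed. Of 21 genes of cholesterol synthesis 10 were lower in YC without overlap and 3 higher, with a median difference of -0.19, of -0.28 within session 1 and of -0.11 with the session term. Over all 31 alternative settings this median kept its sign and ran from -0.28 to -0.0046. Dhcr7, which makes the last step to cholesterol, was at 1.68 and 1.38 in the YC pools, against 1.99 and 2.28 in the YE pools, a difference of -0.61 ± 0.13 (limma adjusted p = 0.2), with -0.26 on its second probe. Lss, Pmvk and Nsdhl of the same pathway differed by -0.45 ± 0.14, -0.40 ± 0.11 and -0.32 ± 0.09, and the other Lss probes by -0.36 and -0.15. In fatty acid synthesis 7 of 19 genes were higher and 3 lower without overlap, with a median of 0.15 that became 0.049 without YC pool 2. Fads1 and Fads2, the desaturases of polyunsaturated fatty acids, differed by 1.49 ± 0.34 and 0.39 ± 0.11, while Acacb, which makes malonyl-CoA at mitochondria, differed by -0.87 ± 0.18 on its brighter probe and by -0.05 on the other. Of 19 adipocyte markers 8 were lower and 2 higher without overlap, and 6 had a positive difference. Their median was -0.06, -0.05 within session 1 and -0.08 with the session term. Adipoq, the fat hormone adiponectin, was at 0.68 and 0.99 in the YC pools, against 1.66 and 1.68 in the YE pools. Cfd, the fat-secreted protease adipsin, differed by -1.40 ± 0.33, Fabp4, a fatty acid carrier, by -0.76 ± 0.22, and Retn, the fat hormone resistin, by -0.49 ± 0.10. With the session term the differences were -0.37 for Adipoq, -0.25 for Cfd, -0.57 for Fabp4 and -0.50 for Retn.

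Milk and luminal genes leaned higher in YC, while of 18 genes of salivary secretion 1 was higher and 6 were lower without overlap, with a median of -0.045. Of 14 milk genes tested, 7 were higher without overlap and 3 lower, and all 7 of those higher had an unadjusted p under 0.05, with a median difference of 0.45. The milk median was 0.33 within session 1 and 0.098 with the session term, and 0.30 to 0.70 with 1 pool left out, the ends being without YE pool 2 and YE pool 1. Over all 31 alternative settings it kept its sign in 30, with its lowest value at -0.035. Mfge8, a milk fat globule protein, was at 2.304 and 2.35 in the YC pools, against 1.46 and 0.16 in the YE pools. Its difference of 1.52 ± 0.33 (limma adjusted p = 0.221) became 0.87 without YE pool 2 and 2.17 without YE pool 1, where it passed the test (adjusted p = 0.00133). Wap, the whey acidic protein, was at 1.46 and 1.90 in the YC pools, against 0.69 and 0.08 in the YE pools. Ltf, the iron-binding milk protein lactoferrin, differed by 1.01 ± 0.23 and Btn1a1, the butyrophilin of milk fat globules, by 0.82 ± 0.27. The median of this list was 1.92 and 2.15 in the YC pools, against 1.63 and 1.16 in the YE pools. YE pool 2 was thus the lowest of the YC and YE pools, while the NDL25 pools were lower still, at 0.94 and 0.81. The NYPD pools were above both YC pools, at 2.43 and 2.22. Of 20 luminal markers 8 were higher and 1 lower without overlap, with a median of 0.12 that became 0.26 without YE pool 1. Gata3, the luminal transcription factor, differed by 0.53 ± 0.16, which became 0.36 without YE pool 2, and the keratin Krt8 by 0.38 ± 0.14. Krt19 was at -1.99 and 0.07 in the YC pools, against -3.07 and -3.09 in the YE pools, a difference of 2.12 that became 1.09 without YC pool 2.

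Macrophage, antigen presentation and interferon genes were more often above than below, while of 15 neutrophil and mast cell genes 2 were higher and 3 lower without overlap and 12 had a negative difference. Of 20 macrophage markers 11 were higher in YC without overlap and 1 lower, with a median of 0.24, of 0.14 within session 1 and of 0.15 without YC pool 1. Cd14, a co-receptor for bacterial lipopolysaccharide, had log2 ratios of 1.23 and 0.89 in the YC pools, against -0.22 and -0.66 in the YE pools, a difference of 1.503 ± 0.27 (limma adjusted p = 0.16). Lyz2, the lysozyme of myeloid cells, differed by 0.62 ± 0.19, Mpeg1, a pore-forming protein of phagocytes, by 0.47 ± 0.16 on its brighter probe and 0.10 on the other, and the scavenger receptor Msr1 by 0.43 ± 0.17. Of 20 antigen presentation genes 8 were higher and 0 lower, with a median of 0.19 that became 0.12 without either YC pool 1 or YE pool 1. Among them was Cd74, the chaperone of class II molecules, at 1.83 and 1.65 in the YC pools, against 0.78 and 0.38 in the YE pools. Of 28 interferon response genes 11 were higher and 0 lower, with a median of 0.27. But the median was -0.02 within session 1, -0.21 with the session term and 0.0022 without YC pool 1. These values all turn on YC pool 2 and are not separate checks. Without YE pool 1 the median was 0.055. Isg20, an interferon-induced exonuclease, differed by 0.87 ± 0.18, and Oas2, which makes 2-5A messengers in antiviral defence, by 2.01 ± 0.84 on its brighter probe and 0.63 on the other. The lymphocyte lists lay near 0, with medians of -1.28e-05 for T and NK cells and 0.01 for B and plasma cells. C4b, a form of complement component C4, was at 2.44 and 2.64 in the YC pools, against 1.11 and 0.81 in the YE pools, a difference of 1.58 ± 0.24 (limma adjusted p = 0.134).

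Of 31 proteases and inhibitors 13 were higher in YC without overlap and 2 lower, with a median of 0.22, of 0.06 within session 1 and of 0.047 without YE pool 2. Mmp12, the macrophage elastase, was at 0.83 and 0.76 in the YC pools, against -0.78 and -0.84 in the YE pools, a difference of 1.61 ± 0.50. Mmp13, a collagenase, differed by 0.86 ± 0.26. Serpinb5, the epithelial serpin maspin, was at 3.45 and 3.44 in the YC pools, against 2.56 and 1.51 in the YE pools, and its difference of 1.41 ± 0.35 became 0.89 without YE pool 2. Of 28 fibroblast and matrix genes 11 were higher and 0 lower, with a median of 0.21. That median was 0.35 within session 1 and 0.55 with the session term, and ran from 0.058 without YE pool 2 to 0.43 without YE pool 1. Fbln2, a fibulin of the extracellular matrix, differed by 0.64 ± 0.16. Of 25 genes of hypoxia and glycolysis 9 were higher and 4 lower, with a median of 0.08 and of -0.01 within session 1. Slc2a1, the glucose carrier GLUT1, was at -1.22 and -0.96 in the YC pools, against -1.92 and -2.29 in the YE pools. Car9, a carbonic anhydrase induced by hypoxia, differed by 0.60 ± 0.15.

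Lists downstream of the receptor did not share 1 direction. Of 16 genes of ERK output and feedback 6 were lower in YC without overlap and 3 higher, with a median of -0.18, of -0.26 within session 1 and of -0.062 without YC pool 2. Phlda1, a feedback gene of receptor kinase signalling, was at 2.03 and 2.37 in the YC pools, against 2.96 and 3.73 in the YE pools, a difference of -1.14 ± 0.34 (limma adjusted p = 0.358) that became -0.76 without YE pool 2. Dusp6, the phosphatase that switches off ERK, differed by -0.65 ± 0.29, which became -0.39 without YC pool 1 and -0.37 without YE pool 2. Of 20 immediate early genes 9 were higher and 2 lower, with a median of 0.20 that became 0.099 without YE pool 2. Fos was at -2.19 and -2.33 in the YC pools, against -2.86 and -3.40 in the YE pools, while the nuclear receptor Nr4a1 was at 0.42 and 0.14 in the YC pools, against 1.07 and 1.23 in the YE pools. Of 30 proliferation genes 4 were higher and 7 lower, with a median of -0.06 that turned to 0.0058 without YC pool 2 and to 0.020 without YE pool 2. Rrm2, a subunit of ribonucleotide reductase, differed by -1.12 ± 0.33, while Cdc20, an activator of the anaphase-promoting complex, differed by 0.55 ± 0.15. In other signalling lists Fgf9, a fibroblast growth factor, differed by -0.38 ± 0.06, with 0.21 and 0.20 in the YC pools, against 0.58 in both YE pools. Wnt5b, a secreted Wnt ligand, differed by 1.03 ± 0.20 and by 0.97 on its second probe.

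Skeletal muscle genes leaned higher in YC, with the highest values in YC pool 2. Of 21 muscle genes 16 were higher without overlap and 0 lower, with a median difference of 0.49, which ran from 0.17 without YC pool 2 to 0.88 without YC pool 1. Of the 21, 2 had an unadjusted p under 0.05, both higher. By pool the median of the list was -0.06 and 0.57 in the YC pools, against -0.12 and -0.02 in the YE pools. Myh4, a fast muscle myosin, was at 0.96 and 3.23 in the YC pools, against 0.28 and 0.14 in the YE pools, and its difference of 1.89 ± 0.82 became 0.75 without YC pool 2 and 3.02 without YC pool 1. Acta1, skeletal actin, was at -2.04 and -0.42 in the YC pools, against -2.76 and -2.73 in the YE pools, and its difference of 1.51 ± 0.58 became 0.70 without YC pool 2 and 2.32 without YC pool 1. The part of muscle tissue in the other differences was not tested.

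**Figure D5:**
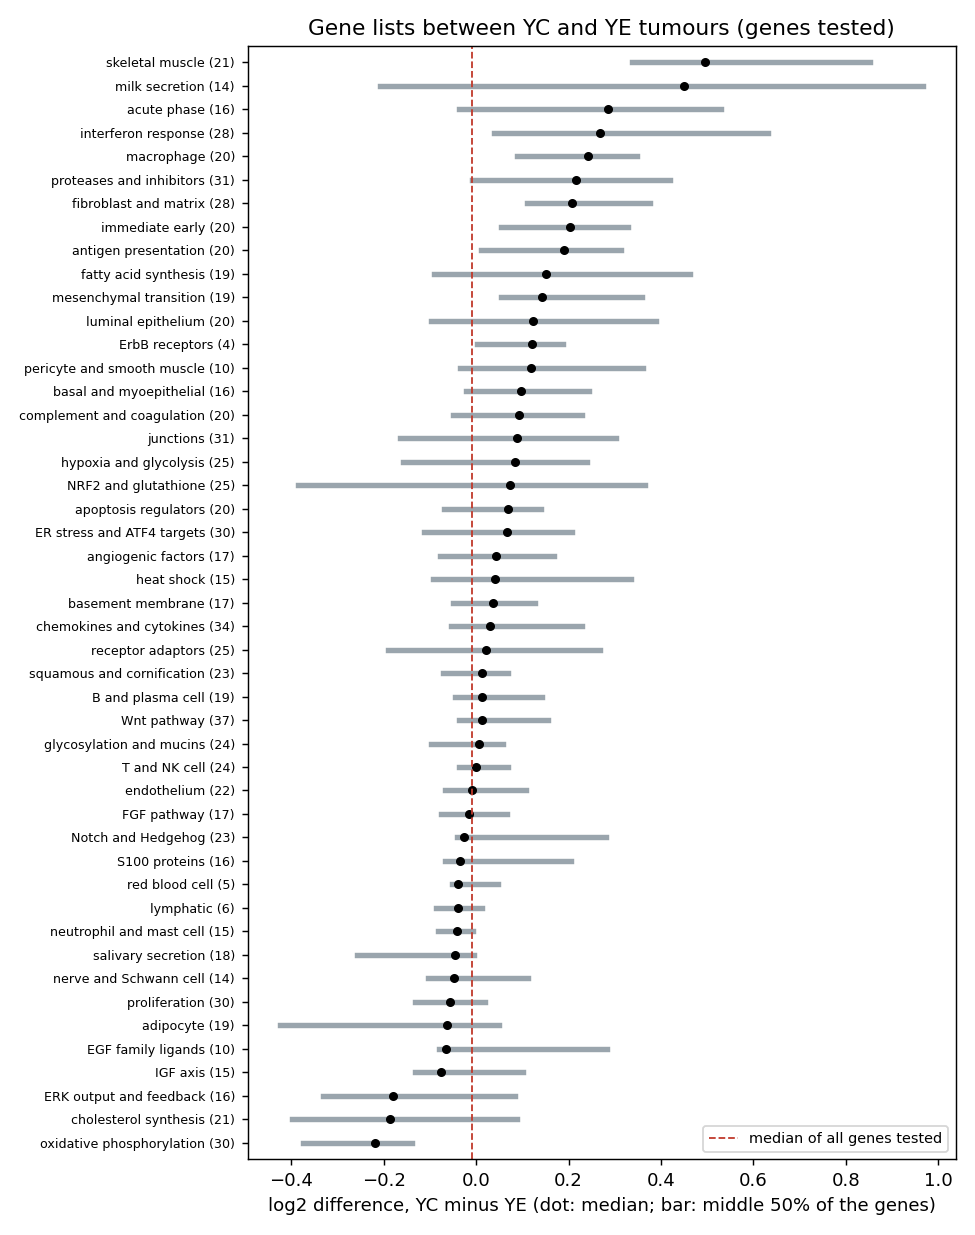
The x axis gives the log2 difference of YC minus YE, with a dot at the median and a bar over the middle 50% of the genes of each list, the number tested in brackets, and a dashed line at the median of all genes. Skeletal muscle and milk secretion have the highest medians, at 0.49 and 0.45, and oxidative phosphorylation the lowest, at -0.22.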

How the data were processed

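The deposited scanner files hold the intensity of both channels of each spot, with Agilent's log10 ratio of red over green, per the file headers, which name Feature Extraction as the software. A table of processed log2 ratios deposited by the authors was used only as an alternative, and its log base was read from its fit to the scanner values. Per the submitters' processing notes RMA, limma and R 2.3.0 were used, with no role given. The dye of each tumour sample was read from 52 probes of luminal and milk genes on its arrays, since the labels leave it unstated, and each of the 12 pools had 1 array of each dye.

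From the intensity values, background was corrected with normexp (offset 50) and each array normalised by loess with limma 3.58.1 in R 4.3.3. Outlier spots and control spots were left out, and the dye pair averaged. A probe had to be well above background on at least 4 arrays, and the brightest probe stood for its gene, which left 28343 of 41174 probes. Names came from RefSeq by accession for 20822 probes, by symbol for 4991 and by synonym for 5237, and 10124 kept the file's name. A mean per strain was fitted over the 12 pools with lmFit and eBayes, and p-values were adjusted by Benjamini-Hochberg over all genes at 0.05. The procedure was tested on simulated data.

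Genes were named as the 12 largest differences a direction, the list members with the smallest p, the ErbB receptors and adaptors, and the smallest p overall. The gene lists and members were chosen with earlier results of these data known. Alternatives covered background, normalisation, filters, probes, dyes, sessions, pool numbers, weights and each pool left out.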

Additional observations from a re-analysis of the deposited data

How the results depend on the processing

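The precision is limited by 2 pools a strain and by sessions that nearly coincide with strains. The count of 1 gene between YC and YE became 0 with Agilent's processed signals, median centring, either dye alone, the YC and YE pools alone, the pool number as a block, the session as a term or within session 1, an intensity trend, or without both YB pools. It was also 0 over the YC, YE and YD pools alone with the pool number as a block. This setting and the one without both YB pools were chosen after seeing the data. Leaving out 1 pool gave 0 to 6 genes, the 6 without YE pool 1, and at an unadjusted p under 0.05 it gave 1207 to 2772, while the block gave 2736, the session term 1406 and the YC, YE and YD pools alone with the block 5827. The labels do not tie pools by number. Differences of pool 1 minus pool 2 correlated over genes at 0.46 between YC and YE, 0.71 between YC and YD and 0.62 between YE and YD. YB and NDL25 correlated at 0.40 with each other. With YC, YE and YD, YB correlated at only 0.13 to 0.23 and NDL25 at 0.01 to 0.06. Between NYPD and the others the values ran from -0.17 to 0.06. This is a hint of pool numbers shared among some strains, in the data and not in the design. A paired analysis with the replicate block thus changed the call of BC006965 (adjusted p = 0.131). Members of the lists called numbered 0 to 1 with 1 pool left out.

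Calls of YC against the 4 other strains numbered 6 with the deposited ratios, 5 with the session term, 20 with array weights and 2 without both YB pools, and 5 to 73 with 1 pool left out, the 73 without NYPD pool 1. Calls of YE numbered 41 with median centring, 1 with the deposited ratios, 37 with Cy5 alone, 0 with the session term, 49 with array weights, 36 with the intensity trend and 1 without both YB pools, and 3 to 420 with 1 pool left out, 3 without YE pool 2 and 420 without YB pool 2. The causes were not tested.

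Of 112 gene results under up to 31 settings, 104 never changed sign. Grb2 reversed to -0.072 with scale normalisation, -0.012 with probes averaged, -0.052 with the deposited ratios, -0.37 with the session term and -0.11 within session 1, and with 1 pool left out ran from -0.13 without YE pool 2 to 0.17 without YE pool 1. Erbb3 reversed to 0.014 with scale normalisation and 0.18 with the session term, Erbb2 to -0.034 with Cy3 alone, and to between -0.11 and 0.40 with 1 pool left out, and Erbb4 to -0.019 with the deposited ratios. The session term took Dusp6 to 0.13 and Serpina3n to -0.0076, and Serpina3n ran from -0.026 without YE pool 1 to 0.28 without YE pool 2. With the deposited ratios YE minus the 4 strains was -0.15 for Slc25a17 and 0.0088 for Anxa3, where another probe of each gene was used because the brightest lacked a deposited value in some pools. For the same reason Slc25a17 in YC was at 0.0055 there, and the Erbb4 value of -0.019 came from another of its probes.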

Other observations

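Further lists held single genes with wide differences, none of which passed the test. Nqo1, a detoxifying quinone reductase, had log2 ratios of -0.54 and -0.43 in the YC pools, against -1.89 and -2.12 in the YE pools, a difference of 1.52 ± 0.44 (limma adjusted p = 0.344), while its list of NRF2 and glutathione genes had 8 of 25 members higher and 7 lower without overlap. Hes1, a Notch target, was at 0.91 and 0.65 in the YC pools, against -0.22 and -0.53 in the YE pools. Lamb3, a laminin chain of epithelial basement membrane, differed by 1.56 ± 0.45, and Tgfb1, the growth factor TGF-beta 1, by -1.08 ± 0.29.

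Endothelial genes lay near 0, while basal and myoepithelial genes leaned higher in YC. Of 22 endothelial genes 4 were higher and 3 lower in YC without overlap, with a median difference of -0.0093. Of 16 basal and myoepithelial genes 9 were higher and 0 lower, with a median of 0.10, where 18.1% of all genes were higher without overlap. Only 1 of the 16 had an unadjusted limma p under 0.05.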
